A study of Rattus norvegicus with 8 samples.

Results

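miR-322, miR-503, miR-351, miR-542 and miR-450a form a cluster of miRNA hairpins on the rat X chromosome. Their mature products were followed here in kidneys of rats given aristolochic acid (AA), a plant compound that damages the kidney and causes tumors in it. The members were taken by name alone, as every entry of the count table with 1 of these 5 names, with both arms of a hairpin where both were listed. This gave 10 mature miRNAs of the 620 in the table, from 5 hairpins. All 8 animals were male Fisher 344 rats of the Big Blue transgenic line, which carries a bacterial reporter gene for scoring mutations, and control and treated rats shared this transgene. The 4 AA-treated rats had AA as the sodium salt by gavage from an age of 6 weeks, with a dose of 10.0 mg/kg (volume 4 ml/kg) 5 times a week. The 4 controls had sodium chloride solution (0.9%) instead. The protocol gives 12 weeks of treatment and the labels an age of 18 weeks for all rats, whereas the single sample descriptions give 12, 13, 14 and 15 weeks for the rats numbered 1 to 4 of each group. All were killed 1 day after the last dose, and 1 small RNA library was sequenced per kidney.

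miRNAs are cut as short duplexes from hairpin precursors, and usually 1 arm of the hairpin is kept by the silencing complex while the other, marked with a star in older names, is mostly degraded. The bases 2 to 8 of the mature miRNA, the seed, pair with target mRNAs, so that miRNAs with the same seed share many targets. miR-322 is the rodent counterpart of human miR-424, and it and miR-503 are known for restraining the cell cycle through targets such as cyclin D1 and Cdc25a. Arms cut from neighbouring hairpins of 1 transcript start out together, and their mature levels can then differ through processing and stability.

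The 10 mature sequences are shown because the seeds set which other kidney miRNAs share the cluster's pairing and because the arms of a hairpin are compared with each other here. They are the RefSeq sequences of the GRCr8 assembly, 5′ to 3′, and all 10 members were matched. Capitals mark the seed, rno- stands for the rat, and the arms with more counts come first.
rno-miR-542-3p: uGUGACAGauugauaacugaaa
rno-miR-322: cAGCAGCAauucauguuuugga
rno-miR-450a: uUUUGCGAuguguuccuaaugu
rno-miR-503: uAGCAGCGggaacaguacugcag
rno-miR-351: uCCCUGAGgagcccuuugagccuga
rno-miR-322*: aAACAUGAagcgcugcaaca
rno-miR-503*: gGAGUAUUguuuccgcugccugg
rno-miR-542-5p: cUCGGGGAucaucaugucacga
rno-miR-351*: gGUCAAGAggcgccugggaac
rno-miR-450a*: uAUUGGGAacauuuugcauaa
The 10 members had 10 different seeds. The seeds of miR-322 and miR-503 matched at 6 of 7 positions. In GRCr8 the hairpins lie on the minus strand of chromosome X, in the order Mir322 (chrX:137726147-137726241), Mir503 (chrX:137725856-137725926), Mir351 (chrX:137725116-137725196), Mir542 (chrX:137722176-137722254), Mir450b-1 (chrX:137721078-137721146) and Mir450a1 (chrX:137720933-137721023), and together span 5309 nt. These are coordinates of the reference, since reads were assigned to miRNA sequences and the counts carry no genome position. Mir322, Mir503 and Mir351, 3 of the 6 hairpins, lie within the interval of a long non-coding RNA gene, LOC102550366, and the nearest protein-coding genes on either side are Plac1 and Hprt1. miR-450b was not analysed here. The first 20 bases of its 5p arm are those of miR-450a, so reads of the pair that end within them cannot be told apart.

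The counts on miRNAs summed to 13412373 to 15616670 per rat. Normalized counts are these counts over median-of-ratios size factors, which lay between 0.818 and 1.28. Differential expression required an adjusted p under 0.05 over all 620 miRNAs (quasi-likelihood test of edgeR, Benjamini-Hochberg adjustment) and a ratio of the group means over 1.5. miR-192, miR-194 and miR-204, used here as markers of kidney tubule epithelium, were all 3 counted in every rat. Their summed levels were 224279 to 1161165 normalized counts. Each library came from another rat, so that p values measure the spread between these animals.

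In the control kidneys the cluster was a minor component, with 0.113% ± 0.00640 (SD, n = 4) of all miRNA counts. miR-542-3p, which has been described as a repressor of survivin, was its most abundant product at 10320 ± 778 normalized counts (SD, n = 4) and ranked 56 among the 620 miRNAs. miR-322 followed at 3279 ± 393, miR-450a at 1659 ± 150, miR-503 at 1294 ± 131 and miR-322* at 850.1 ± 143 (SD, n = 4 each). The other members were far lower, from 220.5 ± 26.5 normalized counts for miR-351 to 7.55 ± 4.85 for miR-450a*, which ranked 383 (SD, n = 4 each). The order was the same when the control means were divided by the mature lengths of 20 to 25 nt, from 469.1 normalized counts per nt for miR-542-3p to 0.359 for miR-450a*. Among neighbours in this order, miR-450a and miR-503 overlapped between rats, as did miR-351* and miR-450a*. The other neighbours did not overlap in the 4 controls. In the AA-treated rats the mean of miR-503 was above that of miR-450a, and the order was less clear. There miR-322, miR-503 and miR-450a all overlapped with each other. So did miR-351 with miR-322*, miR-503* and miR-542-5p, miR-503* with miR-542-5p, and miR-351* with miR-450a*. Adaptor ligation favours some sequences over others, and this was not measured, so that levels of different miRNAs are less comparable than levels of 1 miRNA between rats.

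**Figure D1:**
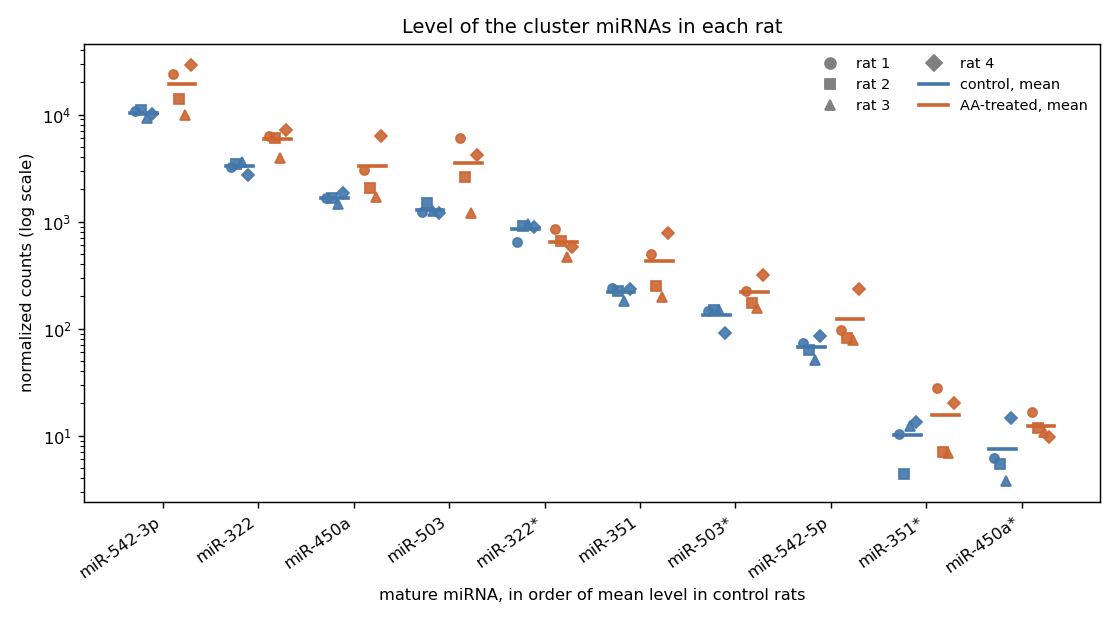
Normalized counts of the 10 mature miRNAs of the cluster in each rat, on a log axis, with the miRNAs in order of their mean in the control rats. Symbols stand for rats 1 to 4 of each group, blue for control and orange for AA-treated, and bars give the means of 4 rats. Control rats lie close together for the abundant members, whereas AA-treated rats spread widely, with rat 3 at or near the control level for most members on this scale.

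After AA treatment, miR-322 and miR-503 were up-regulated, and 7 further members had higher means that did not pass the test. The exception was miR-322*, the other arm of the miR-322 hairpin, whose mean was lower. For the 9 members with a higher mean, the ratio of AA-treated to control means lay between 1.54 and 2.70. The summed level of the cluster was 17843 ± 876 normalized counts in controls and 33347 ± 14140 in treated rats, or 0.251% ± 0.106 of all counts in the latter (SD, n = 4 each). Thus 2 of the 10 members were differentially expressed, both up-regulated, where 5.81% of all 620 miRNAs were up-regulated, 3.23% down-regulated and 9.03% changed in either direction. The shares over all 620, here and below, include miRNAs with a mean under 10 counts, which no member had. When only the 370 miRNAs with a mean of at least 10 counts were tested, 56 were differentially expressed, among them the same 2 members. The median log2 fold change was 0.85 over the 10 members and 0.05 over all 620 miRNAs. Scaled by total counts instead, these medians were 1.12 and 0.31. An unadjusted p under 0.05 was found for 7 of the 10 members and for 23.9% of all miRNAs. The 10 members come from 5 neighbouring hairpins and were measured in the same rats, so these are not 7 separate results. They were also chosen with earlier results of these data known. Kidney tissue holds many cell types, and more cells of a type cannot be told apart from more miRNA per cell.

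miR-322 had 3241, 3491, 3640 and 2744 normalized counts in control rats 1 to 4 and 6376, 5991, 3949 and 7231 in AA-treated rats 1 to 4. The groups did not overlap, although AA-treated rat 3 was only just above the highest control rat. The mean rose 1.80-fold, a log2 fold change of 0.84 (standard error, SE, 0.21, edgeR adjusted p = 0.0227). In the exact permutation test over the 70 labelings of the rats, p was 0.0286, two-sided, the smallest that 4 rats against 4 allow. miR-322 stayed differentially expressed without any single AA-treated rat, with adjusted p up to 0.0454, and was lost without any single control rat, with adjusted p of 0.0685, 0.0651, 0.0510 and 0.0595 for control rats 1 to 4 left out.

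miR-503, whose seed differs from that of miR-322 at a single base, showed the highest ratio of the cluster. It had 1228, 1488, 1255 and 1204 normalized counts in control rats 1 to 4 and 6014, 2586, 1200 and 4170 in AA-treated rats 1 to 4. In 3 of 4 AA-treated rats it was above every control rat, and in AA-treated rat 3 it was below all of them. The mean rose 2.70-fold, with a log2 fold change of 1.43 (SE 0.37, edgeR adjusted p = 0.0245, exact permutation p = 0.143). The call was lost without AA-treated rat 1, at a log2 fold change of 1.04 and an adjusted p of 0.0577, and without control rat 1, 3 or 4, with adjusted p of 0.0667, 0.0662 and 0.0739. Leaving out AA-treated rat 3 gave a log2 fold change of 1.71 (adjusted p = 4.81e-04 from edgeR). Without both rats numbered 4, neither miR-322 nor miR-503 passed (edgeR adjusted p = 0.0645 and 0.116). miR-503*, cut from the same hairpin, had 147, 149, 151 and 91.6 normalized counts in controls and 227, 174, 157 and 316 in treated rats. All 4 AA-treated rats were above all control rats (exact permutation p = 0.0286), but its log2 fold change of 0.70 did not pass the test over all miRNAs (SE 0.28, edgeR adjusted p = 0.158). With miR-322 it made 2 of 10 members without overlap between the groups, both higher, where 16.3% of all miRNAs did not overlap, 9.68% with higher and 6.61% with lower treated rats.

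miR-542-3p, the most abundant member, had 10830, 10976, 9264 and 10212 normalized counts in control rats 1 to 4 and 23737, 14060, 9907 and 29195 in AA-treated rats 1 to 4. AA-treated rat 3 lay among the control rats and the other 3 above them. The ratio of the means was 1.86, with a log2 fold change of 0.90 (SE 0.28, edgeR adjusted p = 0.0658, exact permutation p = 0.114). Its other arm, miR-542-5p, was lower by far at 51.2 to 85.5 normalized counts in controls and 96.5, 81.2, 77.9 and 236 in AA-treated rats 1 to 4 (edgeR adjusted p = 0.175). Here the mean, with a ratio of 1.81 to that of the controls, rested on AA-treated rat 4, and leaving it out moved the log2 fold change from 0.86 to 0.33.

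miR-450a, at the far end of the cluster, had 1675, 1654, 1470 and 1838 normalized counts in control rats 1 to 4 and 3051, 2075, 1715 and 6363 in AA-treated rats 1 to 4. Again AA-treated rat 3 fell within the control range, and AA-treated rat 4 was highest. Its log2 fold change of 0.99 (SE 0.34, edgeR adjusted p = 0.0949, exact permutation p = 0.0571) was 0.47 without AA-treated rat 4. miR-351, which carries the seed of the miR-125 family, had 240, 224, 182 and 236 normalized counts in controls and 502.7, 251, 196 and 782 in treated rats. The order of the AA-treated rats was the same as for miR-450a. Its log2 fold change was 0.97 (SE 0.37, edgeR adjusted p = 0.135, exact permutation p = 0.200) and 0.53 without AA-treated rat 4. When AA-treated rat 3 was left out, miR-351, miR-542-3p and miR-450a also passed both thresholds (edgeR adjusted p = 0.0308, 0.00647 and 0.0213), which made 5 members. The 2 remaining arms were near the limit of counting. miR-351* had 4 to 13 reads in a control rat and 7 to 25 in an AA-treated rat, and miR-450a* had 4 to 12 and 11 to 15, and their differences did not pass the test (edgeR adjusted p = 0.496 and 0.371).

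**Figure D2:**
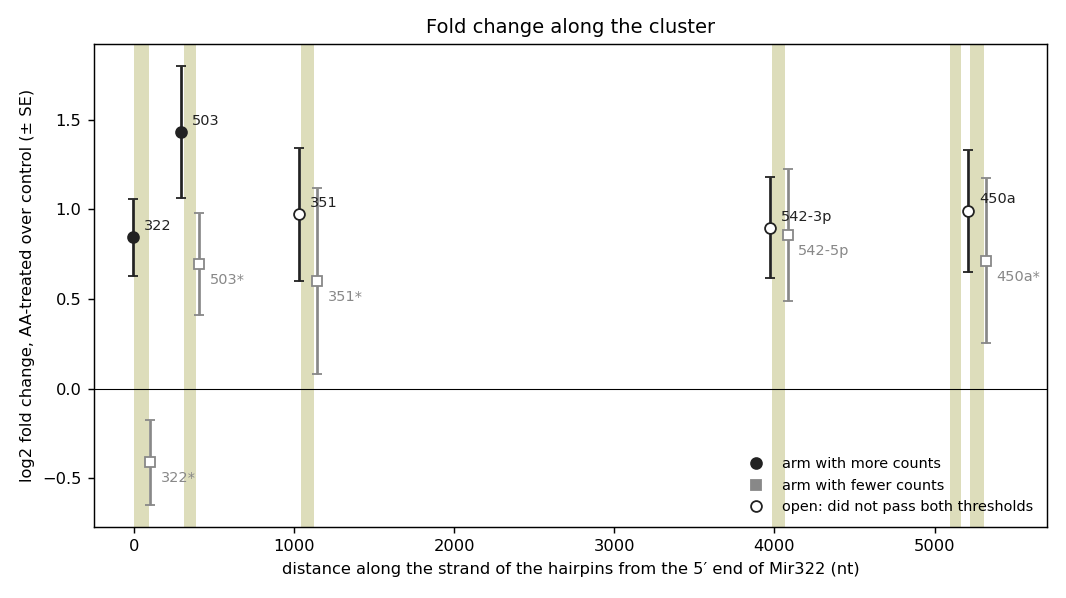
Log2 fold change of each member in AA-treated over control rats (points, with standard errors) against the distance of its hairpin from the 5′ end of Mir322 along the strand of the hairpins. Shaded bands are the 6 hairpins, the arms of a hairpin are drawn side by side, circles are the arm with more counts and squares the other, and filled symbols passed both thresholds. The more abundant arms lie between 0.84 and 1.43 along the whole cluster, and miR-322* alone is below 0, at -0.41.

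The AA-treated rats differed widely from each other in the cluster. The summed level of the 10 members was 40898, 25900, 17685 and 48904 normalized counts in AA-treated rats 1 to 4, against 16989 to 18962 in the control rats. On this scale AA-treated rat 3 lay within the range of the controls, and AA-treated rats 1, 2 and 4 above it. As a share of all counts, the cluster took 0.272%, 0.218%, 0.130% and 0.385% in AA-treated rats 1 to 4 and 0.103% to 0.118% in controls, so that by this scaling AA-treated rat 3 was also above every control. Leukocyte marker miRNAs, by count mostly miR-142-3p and miR-146b, summed to 74197, 61998, 41783 and 91039 normalized counts in the same 4 rats. These sums thus stood in the same order, and the part of leukocytes in the result was not tested. Of the 10 members, 9 were lowest in AA-treated rat 3 among the treated rats and 6 were highest in AA-treated rat 4. Among the 34 other up-regulated miRNAs, 20 were lowest in AA-treated rat 3 and 21 highest in AA-treated rat 4. Among the 360 other miRNAs with a mean of at least 10 counts, 53 (14.7%) were lowest in AA-treated rat 3 and 115 highest in AA-treated rat 4. The SD between rats of the log2 normalized count had a median over the members of 0.22 in controls and 0.73 in treated rats, and over these 360 miRNAs of 0.30 and 0.37. The SD was larger in the AA-treated rats for 9 of 10 members and for 60.8% of the 360 miRNAs. Members differed in detail, since miR-503 was highest in AA-treated rat 1, at a log2 ratio to the control mean of 2.22, whereas miR-450a, miR-351 and miR-542-5p were highest in AA-treated rat 4, at 1.94, 1.83 and 1.80.

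**Figure D3:**
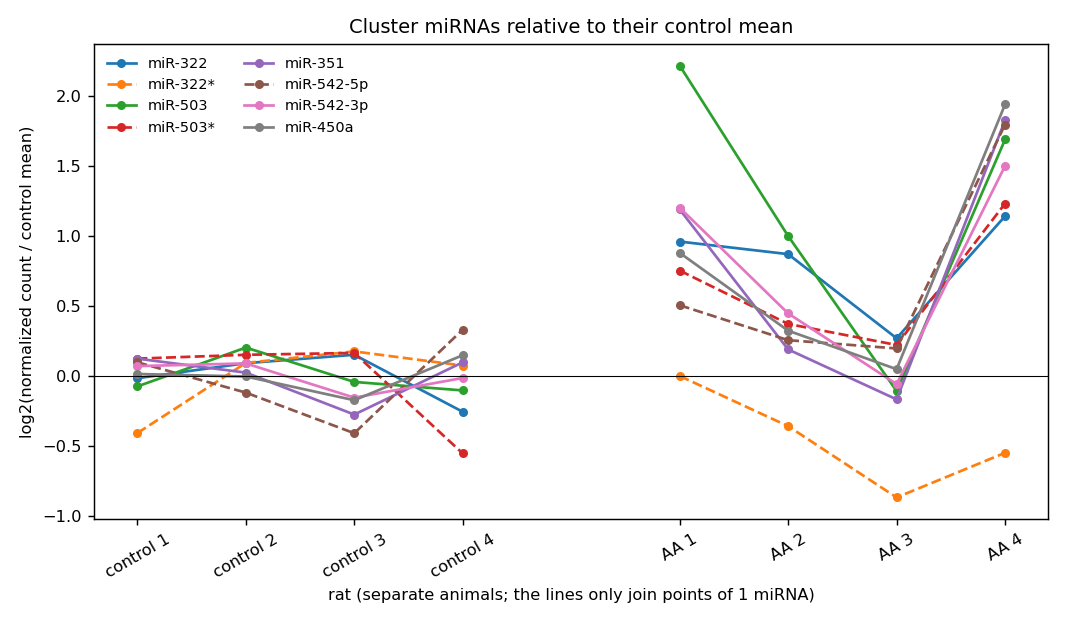
Log2 ratio of the normalized count to the control mean in each of the 8 rats, for the 8 members with at least 50 counts in every rat. Each line joins the values of 1 miRNA over separate animals, dashed for the arm with fewer counts. In AA-treated rat 3 all 8 members lie between -0.87 and 0.27, whereas in AA-treated rat 4 they reach 1.94, with miR-322* at -0.55.

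The proportions of the members to each other are ratios within a library and do not depend on the normalization, and for most members they differed between the groups by less than the spread between rats. miR-542-3p made up 57.8% ± 2.33 of the reads of the cluster in the control rats and 57.0% ± 2.36 in treated rats (SD, n = 4 each). miR-322 made up 18.4% ± 2.31 and 19.0% ± 4.38, and miR-450a 9.31% ± 0.903 and 9.55% ± 2.50 (SD, n = 4 each). For every 100 reads of miR-322 there were 51.6 ± 11.2 of miR-450a in the control rats and 53.5 ± 23.7 in treated rats (SD, n = 4 each). The log2 difference of this ratio was -0.02 (SE 0.33, exact permutation p = 0.971). For miR-542-3p over miR-322 the log2 difference was -0.04 (SE 0.23, exact permutation p = 0.886), and for miR-351 over miR-322 it was -0.05 (SE 0.35, exact permutation p = 0.886). Standard errors of this size leave room for a shift in either direction. miR-503 reached 94.3 reads per 100 of miR-322 in AA-treated rat 1 and 43.2, 30.4 and 57.7 in AA-treated rats 2 to 4, against 34.5 to 43.9 in the control rats (log2 difference 0.39, SE 0.35, exact permutation p = 0.343).

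Of the 11 ratios examined, most of them to miR-322, the one without overlap between the groups was that of the arms of the miR-322 hairpin. The share of miR-322* in the reads of the cluster, which is not among the 11 ratios, did not overlap either, with 3.54% to 5.65% in controls and 1.19% to 2.63% in treated rats. It rests on the same miR-322* reads and is not a separate result. There were 19.8, 26.0, 26.4 and 32.6 reads of miR-322* per 100 of miR-322 in control rats 1 to 4 and 13.3, 11.1, 11.8 and 8.03 in AA-treated rats 1 to 4. AA-treated rat 3, which was near the control level for most of the cluster, lay with the other treated rats in this ratio. The means were 26.2 ± 5.24 and 11.05 ± 2.22 per 100 reads (SD, n = 4 each), a log2 difference of -1.25 (SE 0.21, exact permutation p = 0.0286, two-sided). This is the smallest p the design allows, and adjusted by Benjamini-Hochberg over the 11 ratios examined it was 0.314 in the exact permutation test, which does not pass. A single ratio at this smallest p cannot pass that adjustment, so that its outcome was fixed and does not decide whether the ratio shifted. With 1 rat left out, the log2 difference lay between -1.37 and -1.10. Among the 114 hairpins of the whole table with at least 10 counts on average for both arms, the arm ratio did not overlap between the groups in 12.3%, and the shift of the miR-322 hairpin ranked 5 in size. In normalized counts, miR-322* itself had 640, 906, 959 and 894 in controls and 849, 663, 465 and 581 in treated rats. Its groups overlapped, and its log2 fold change of -0.41 was not significant (SE 0.24, edgeR adjusted p = 0.319). The other hairpins did not show such a separation. There were 10.4 ± 2.07 reads of miR-503* per 100 of miR-503 in controls and 7.79 ± 3.88 in treated rats (log2 difference -0.53, exact permutation p = 0.257), and 0.658 ± 0.131 and 0.645 ± 0.190 reads of miR-542-5p per 100 of miR-542-3p (log2 difference -0.07, exact permutation p = 0.800; SD, n = 4 each).

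**Figure D4:**
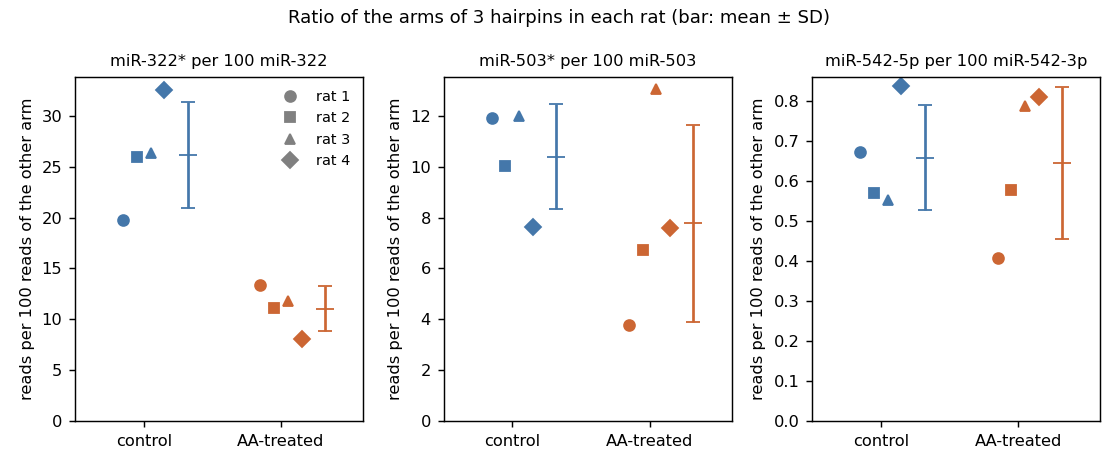
Reads of the arm with fewer counts per 100 reads of the other arm, for the hairpins of miR-322, miR-503 and miR-542, in each control (blue) and AA-treated rat (orange). Symbols are rats 1 to 4 and the bars beside them the mean ± SD of 4 rats. For miR-322 the AA-treated rats lie between 8.03 and 13.3 and the control rats between 19.8 and 32.6, and for the other hairpins the groups overlap.

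Outside the cluster, 6 listed miRNAs had the same seed as a member. The seed AGCAGCA of miR-322 is that of miR-15b, miR-16, miR-195 and miR-497, a family also known for restraining the cell cycle, and the seed CCCUGAG of miR-351 is that of miR-125a-5p and miR-125b-5p. Their sequences are printed in the same way, to set the shared seed beside the rest of each miRNA.
rno-miR-15b: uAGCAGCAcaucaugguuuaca
rno-miR-16: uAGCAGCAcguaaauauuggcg
rno-miR-195: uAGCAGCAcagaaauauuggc
rno-miR-497: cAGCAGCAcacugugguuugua
rno-miR-125a-5p: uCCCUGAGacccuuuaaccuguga
rno-miR-125b-5p: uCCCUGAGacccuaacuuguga
None of these 6 was differentially expressed by edgeR or DESeq2 (0 with an unadjusted p under 0.05 in edgeR), against 9.03% of all miRNAs, and their median log2 fold change was 0.07. A set of 6 is too small to tell 0 from such a share. miR-16, the most abundant, had 37334 ± 4205 normalized counts in control and 39736 ± 3144 in treated rats (SD, n = 4 each), for which the log2 fold change was 0.09 (SE 0.17, edgeR adjusted p = 0.755). miR-15b, encoded beside miR-16 in GRCr8, had 7811, 9152, 8773 and 6786 normalized counts in controls and 10437, 11013, 9667 and 9394 in treated rats. These groups did not overlap (exact permutation p = 0.0286), and its log2 fold change of 0.32 had an adjusted p of 0.294 from edgeR. miR-15b was the 1 of these 6 without overlap, where 16.3% of all miRNAs did not overlap. miR-125b-5p had 12424 ± 1006 and 10365 ± 1585 normalized counts (SD, n = 4 each, log2 fold change -0.26, edgeR adjusted p = 0.396).

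By count, miR-322 was thus a small part of the miRNAs with its seed, although levels of different miRNAs are less comparable, as said above. It made up 5.78% ± 0.288 of their summed normalized counts in controls and 9.23% ± 2.38 in treated rats (SD, n = 4 each). This share did not overlap between the groups, with 5.51% to 6.13% in controls and 6.33% to 11.7% in treated rats. It rests on the same miR-322 counts and is not a separate result. The sum itself, with miR-322 included, was 56789 ± 6850 and 64147 ± 5132 normalized counts (SD, n = 4 each), and its ranges overlapped between the groups. miR-351 made up 1.14% ± 0.0958 of the counts with its seed in controls and 2.54% ± 1.54 in treated rats, and the sum of that seed was 19255 ± 1425 and 17192 ± 2440 (SD, n = 4 each). The share of miR-351 overlapped between the groups.

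Among the 233 other miRNAs with a mean of at least 100 normalized counts, those whose pattern over the 8 rats was nearest to the mean pattern of the members were miR-3586-3p, miR-223, miR-425, miR-190b and miR-872*. The measure was the root mean square difference between log2 profiles centred on their own mean, and it was 0.19, 0.21, 0.26, 0.26 and 0.27 for these 5, against a median of 0.63 for the 233. Among the members it ranged from 0.13 for miR-542-3p to 0.64 for miR-322*. miR-223, a miRNA of myeloid cells, had 552, 579, 574 and 656 normalized counts in controls and 1204, 1153, 700 and 1529 in treated rats. As in the cluster, AA-treated rat 3 was lowest and AA-treated rat 4 highest among the treated rats, an order that the choice by pattern favoured. AA-treated rat 3 was also lowest for miR-190b, whereas AA-treated rat 2 was lowest for miR-3586-3p, miR-425 and miR-872*. AA-treated rat 4 was highest for all 5. miR-223 and miR-425 were differentially expressed, with log2 fold changes of 0.96 and 0.75 (edgeR adjusted p = 0.0231 and 0.0357), and passed in 11 and 7 of 14 other settings. The choice also favoured such differences, since the compared profiles held the difference between the groups.

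Markers of other kidney cells were read beside these values. Of 6 leukocyte miRNAs fixed for this purpose, 5 were listed, none at 0 in any rat, and 3 were up-regulated (miR-142-3p, miR-146b and miR-223). miR-142-5p and miR-150 were not (log2 fold change 0.26 and 0.52, edgeR adjusted p = 0.632 and 0.133). The summed level of the 5 was 18820 to 24614 normalized counts in controls and 41783 to 91039 in treated rats, without overlap. Most of it was miR-142-3p and miR-146b, with means of 37532 and 26348 normalized counts in the AA-treated rats. The fibroblast miRNAs miR-199a-5p, miR-199a-3p and miR-214 summed to 6549 to 7896 in the control rats and to 7788, 11755, 12235 and 13669 in AA-treated rats 1 to 4, with AA-treated rat 1 lowest, and none of the 3 was differentially expressed. The smooth muscle miRNAs (2 of 2 listed, 1959385 to 2668709 in the AA-treated and 2552498 to 3542001 in the control rats), the endothelial (2 of 2, 88876 to 137262 and 124106 to 164003) and the red cell miRNAs (2 of 3, 2172 to 8116 and 6910 to 11910) had overlapping sums, and none of them was differentially expressed. Of the 3 tubule miRNAs, miR-204 was down-regulated. miR-192 and miR-194 also had lower means but did not pass (log2 fold change -0.84 and -0.77, edgeR adjusted p = 0.168 and 0.0515). Their sums, mostly miR-192, had a ratio of AA-treated to control means of 0.559 and overlapped between the groups. What part these cell types have in the levels of the cluster was not tested.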

How the data were processed

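Small RNA libraries of 8 rat kidneys were sequenced on the Genome Analyzer II. The authors took off adaptors and contaminants, collapsed identical reads and matched them to the rat miRNAs of miRBase 16 in miRanalyzer with default parameters (CASAVA 1.7 is named in the submitters' processing notes). The deposited values are raw counts of reads on each mature miRNA in each rat, not pooled, and how reads matching several miRNAs were counted is not given in the sources used here. mRNA, protein and PCR data were not analysed here.

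Groups and rat numbers came from the sample titles. Counts of all 620 miRNAs, with median-of-ratios size factors, were tested with edgeR 4.0.16 in R 4.3.3 (quasi-likelihood test, no covariate, no filter on low counts, Benjamini-Hochberg adjustment over all 620). Standard errors are the log2 fold change divided by the root of the F statistic. Single values and ratios (0.5 added to each count) were compared with exact two-sided permutation tests in scipy 1.17.1. Log2 profiles used a pseudocount of 1. Named were all members, all miRNAs with a member's seed, and the 5 nearest patterns. Names without an arm were taken as the 5p arm and starred names as the 3p arm. The members and lists were chosen with earlier results of these data known. The comparison of arm ratios over 114 hairpins and the sums over a seed were added after the data were seen. Alternatives were TMM, total counts, DESeq2 1.42.0, a mean of at least 10 counts, no fold threshold, a replicate block and leaving out rats. The tests were tested on simulated data with the same dispersion in both groups. The members spread more widely in the AA-treated rats, and that case was not simulated. Rats within a group differed far beyond sampling noise (chi-square over its degrees of freedom of at least 394), so none was counted as a duplicate. At 13412373 to 15616670 counts per rat, depth limits mostly miR-351* and miR-450a* among the members, and PCR reads are not independent molecules. miR-542-5p and miR-503* were also low, with 54 and 75 reads in their lowest control rat. The effect of depth was not tested.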

Additional observations from a re-analysis of the deposited data

Results flagged for a closer look

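Each group of 4 rats was examined for a rat whose gap to the nearest other rat exceeded the 95% critical share of the range in Dixon's test. Over 54 such sets of values (10 members and 6 miRNAs with a member's seed in each group, and 11 ratios in each group) 2 rats stood apart, and chance alone gives about 1 in 20. miR-503* was low in control rat 4, at 91.6 normalized counts, with 147 to 151 in the other 3. miR-542-5p was high in AA-treated rat 4, at 236 normalized counts, with 77.9 to 96.5 in the other 3.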

How the results depend on the processing

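Over all 620 miRNAs, 56 were differentially expressed, 74 with DESeq2, 74 with the replicate block, 69 with total counts and 40 to 62 with 1 rat left out. The number of differentially expressed members, 2, became 5 with total counts, 4 with DESeq2 (miR-450a and miR-542-3p in addition), 0 without both rats numbered 4 and 0 to 5 when a single rat was dropped. It was 0 without control rat 1, 3 or 4, 1 without control rat 2 or AA-treated rat 1, 4 without AA-treated rat 2, 5 without AA-treated rat 3 and 2 without AA-treated rat 4. TMM, the count filter, the replicate block and the absence of a fold threshold left it at 2. All 9 members with a positive log2 fold change kept that sign, and miR-322* its negative sign, under each of the 14 other settings. Same-numbered rats are different animals, so that the numbers were not taken as pairs. Their deviations from the group means correlated at -0.00168 to 0.338 over 370 miRNAs. The mean was 0.153, against -0.0494 for rats of different numbers. Of the 4 control rats, 3 correlated best with the AA-treated rat of their own number, and 2 of the 4 AA-treated rats did so with theirs. Whether rats of the same number share a factor was not tested. The number of ratios without overlap, 1, was 1 to 2 with each rat left out and 2 without both rats numbered 4. Among the miRNAs with a member's seed, signs reversed at values near 0. With 1 rat left out, miR-195 lay between -0.069 and 0.19, miR-497 between -0.064 and 0.21 and miR-125a-5p between -0.15 and 0.038, and with total counts miR-125a-5p was at 0.21. Of the 5 nearest patterns, 2 were kept with profiles centred in each group. A mean of at least 1000 normalized counts left only miR-425 of the 5 eligible, so that this setting says nothing about the others. The causes of the other shifts were not tested.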

Other observations

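Both remaining hairpins, chosen after the fixed ratios had been seen, were read for the ratio of their arms. There were 4.69 ± 2.08 reads of miR-351* per 100 of miR-351 in the control and 3.62 ± 1.36 in the AA-treated rats, and 0.440 ± 0.243 and 0.475 ± 0.218 reads of miR-450a* per 100 of miR-450a (SD, n = 4 each), with overlap between the groups in both.

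When the profiles were centred within each group, so that only differences between rats of the same group remained, the miRNA nearest to the mean pattern of the members was miR-21, with a root mean square log2 difference of 0.14, followed by miR-3586-3p at 0.15, miR-223 at 0.17, miR-7a at 0.17 and miR-17-1-3p at 0.19.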
